A study of Mus musculus with 203 samples.

Results

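The semaphorins, plexins and neuropilins were followed through single neurons of the mouse nucleus ambiguus (Amb), the brainstem nucleus that holds the parasympathetic motor neurons of the heart and the motor neurons of the larynx. All rows of the count table named as a class 3 to 7 semaphorin, an A to D plexin or a neuropilin were taken, which gave 31 of 24029 genes: 20 semaphorins, 9 plexins and 2 neuropilins. The names alone decided which rows entered. The family itself was chosen with earlier results of these data known, and the study had already listed Sema3d and Sema3c as enriched in ACP. The study had also listed Sema5a, and Met from outside the family, as enriched in the cardiac neurons and Sema5b in the laryngeal neurons. The neurons came from C57BL/6 mice (C57BL/6NCrl in the study's methods) at postnatal day 2 to 4, after a cholera toxin B tracer had been injected at postnatal day 1 under the pericardium of some pups and into the cricothyroid muscle, a muscle of the larynx, of others. Each labelled neuron was aspirated alone from a brainstem slice and made into its own full-length cDNA library (Smart-seq2). The deposited annotation divides the neurons labelled from the heart into 53 ambiguus cardiopulmonary (ACP) and 98 ambiguus cardiovascular (ACV) neurons, and calls the 52 neurons labelled from the laryngeal muscle Larynx. All 3 types thus share strain, nucleus, cholera toxin B as tracer and the range of postnatal days. The day of a single neuron is not given. Heart and larynx were injected in different mice, so mouse and injected target cannot be told apart. A pericardial tracer can reach any fibre that ends there, so the cardiac label is a label by projection.

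Semaphorins are secreted or membrane-bound guidance cues that steer growing axons, mostly by repelling them, and that go on to shape synapses and vessels. Plexins are their signalling receptors, and their cytoplasmic part acts on small GTPases. Most secreted class 3 semaphorins cannot bind a plexin alone and first bind a neuropilin, which pairs with an A plexin; the membrane-bound classes bind plexins directly. In motor neurons of cranial nerves and spinal cord, combinations of neuropilins and plexins sort axons towards different targets, and motor neurons also make semaphorins themselves.

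The promoters of Sema3c and Sema3d are shown because these 2 ligands separate the ACP from the ACV neurons most widely among the members found in over 50% of the neurons of a type. Each line gives 300 bases of RefSeq sequence on the plus strand of GRCm38.p6, from 250 bases before the RefSeq start of the gene to 50 after it. The stretches are chr5:17574566-17574865 for Sema3c and chr5:12382916-12383215 for Sema3d. The GENCODE start of Sema3c, used for the gene positions given further on, lies 535 bases before the RefSeq start, and that of Sema3d 219 bases after it, so the Sema3c window falls inside the GENCODE gene and the Sema3d window before it. Capitals mark a GC box (GGGCGG on either strand) or a CCAAT box (CCAAT on either strand).
Sema3c: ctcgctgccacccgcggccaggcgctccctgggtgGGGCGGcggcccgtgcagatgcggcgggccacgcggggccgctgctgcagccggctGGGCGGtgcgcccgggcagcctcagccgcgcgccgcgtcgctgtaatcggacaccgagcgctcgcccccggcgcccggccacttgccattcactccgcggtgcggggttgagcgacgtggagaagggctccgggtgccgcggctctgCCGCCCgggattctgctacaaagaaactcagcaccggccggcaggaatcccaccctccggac
Sema3d: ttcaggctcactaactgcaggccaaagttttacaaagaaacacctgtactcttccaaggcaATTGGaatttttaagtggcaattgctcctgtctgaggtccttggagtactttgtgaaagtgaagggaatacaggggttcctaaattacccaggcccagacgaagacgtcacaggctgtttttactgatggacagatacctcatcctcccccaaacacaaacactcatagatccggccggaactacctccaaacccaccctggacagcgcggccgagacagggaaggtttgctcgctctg
The Sema3c promoter is 75.7% G and C and holds 3 GC boxes, at -215, -159 and -12 from the RefSeq start, while the Sema3d promoter is 49.7% G and C and holds 1 CCAAT box, at -189. The median over all promoters of the table was 52.7% G and C. Of 32851 promoters of this length, 35.7% held a GC box and 37.4% a CCAAT box. Neither promoter held the TATA box TATAAA (13.6% of promoters), the homeodomain core TAATTA (5.29%), the E-box CAGCTG (16.3%) or the T-box half-site AGGTGTGA (1.28%), each searched on both strands; a match or its absence describes letters in this window and no binding. A promoter entry was found for 26 of the 31 members.

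No label names the mouse or plate of a neuron, so each type is 1 sample here: no test between types was made, and every difference below is a description of these neurons without a p-value. The ACP and ACV names were also made by clustering these same counts, so a difference between them is not independent of the grouping. The Larynx neurons were set apart by the injected target. A comparison of ACP or ACV alone with Larynx still depends on that clustering on its cardiac side. Only the pooled cardiac neurons were divided from Larynx by the target alone. Levels are counts per 10000 counts of the neuron outside Rn45s, a ribosomal RNA precursor, and a type's level is the mean over its neurons. A gene was compared where at least 10% of the neurons of either type held a read, and a difference is counted where the means differed at least 2-fold. Shares carry exact binomial 95% intervals, which treat neurons as independent draws and do not cover differences between mice.

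Counts outside Rn45s had a median of 1115375 per neuron in ACP (330407 to 2396541), 1120511.5 in ACV (313668 to 2226230) and 560892 in Larynx (118492 to 1821510). Rn45s took a median of 34.3%, 35.8% and 58.6% of the counts. Depth and Rn45s share thus differed between the cardiac and the Larynx neurons, and shares are therefore also given after each neuron was thinned to 150000 counts outside Rn45s, which left out 2 Larynx neurons. The 9 motor neuron markers, among them Chat and Isl1, were found in all types, with summed medians of 47.1, 57.8 and 57.6. The study's 4 ACP markers had summed medians of 4.04, 0.0524 and 0.689, its 7 ACV markers 0.0835, 3.05 and 0.0337, and its 6 laryngeal markers 0.376, 0.465 and 25.4, in that order of types. The labels and the markers chosen on these neurons thus went together.

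The family as a whole was broadly present in all 3 types. Reads were found for 30 members in ACP, 30 in ACV and 31 in Larynx, and 20, 18 and 17 members were found in at least 50% of the neurons of these types (18, 14 and 17 after thinning). A single ACP neuron held reads of 11 to 29 members with a median of 20, an ACV neuron 7 to 28 with a median of 16, and a Larynx neuron 6 to 26 with a median of 19. After thinning these medians were 17, 14 and 16.5. The ACV neurons therefore had the smallest median number of members at equal depth, while the 3 ranges overlapped over most of their length. Genes of any kind with a read had medians of 7903, 7627 and 7594 before thinning. They were not counted after it, so the members cannot be set against all genes at equal depth. Per kb of exon, and averaged over the types, Nrp1 (0.25) had the highest level of the 31 members, followed by Sema3c (0.233), Nrp2 (0.214), Sema4f (0.148) and Plxna3 (0.13). Sema3g was last: none of 53 ACP and none of 98 ACV neurons held a read, which allows shares of up to 5.66% and 3.06%, and 1 Larynx neuron held 5 reads.

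**Figure D1:**
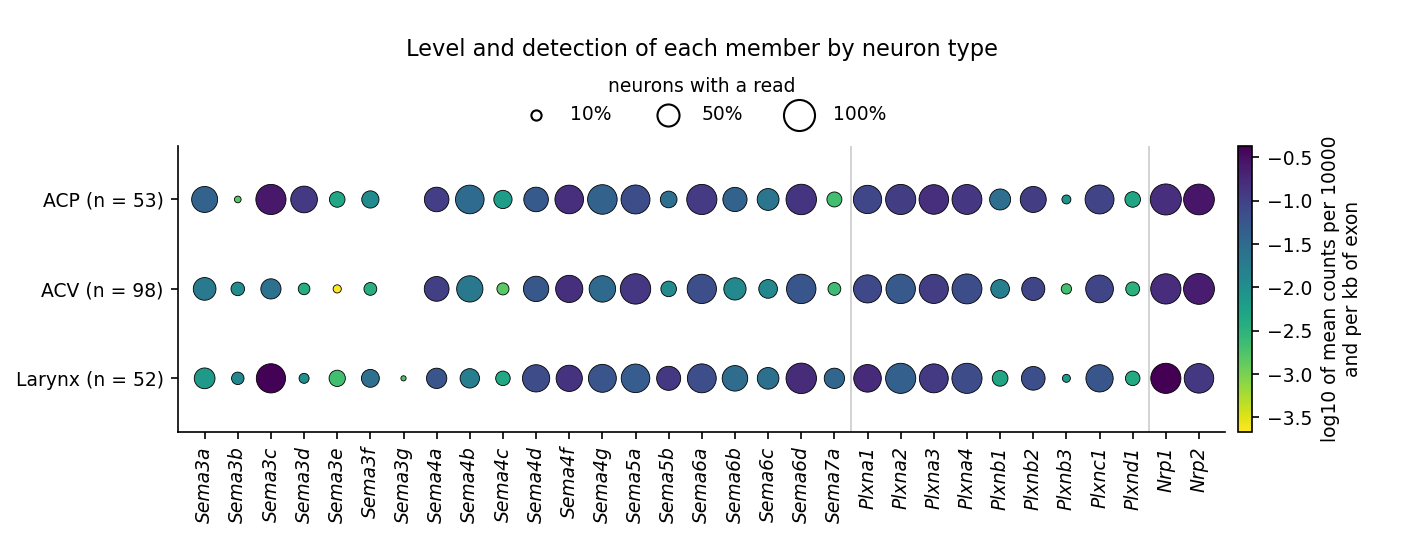
Each of the 31 members (horizontal axis) in the 3 neuron types (vertical axis), where the area of a circle grows with the percentage of neurons that held a read and its colour gives the log10 of the mean count per 10000 and per kb of exon. Sema3c and Sema3d differ most in colour and size between ACP and ACV, both neuropilins are found in over 90% of the neurons of every type, and Sema3g is empty in ACP and ACV.

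Between the 2 cardiac types the semaphorins were mostly higher in ACP. Of the 30 members compared, 11 (36.7%) were at least 2-fold higher in ACP, against 9.87% of all 13356 genes compared, and 1 (3.33%) was at least 2-fold higher in ACV, against 8.63% of all genes (18.5% in either direction). The median log2 ratio of ACP to ACV was 0.67 over the members and 0.00 over all genes. The differences of at least 2-fold lay mostly in the ligands: 9 of 19 semaphorins, 2 of 9 plexins and neither neuropilin were that much higher in ACP. Below that limit the plexins leaned to ACP too. All 9 plexins had a log2 ratio above 0 (median 0.5), as had 15 of the 19 semaphorins (median 0.88). All 6 class 3 semaphorins compared differed at least 2-fold, 5 higher in ACP and Sema3b higher in ACV. Of the 11 members higher in ACP, 7, all semaphorins, stayed past 2-fold in all 7 alternative ways of computing the ratio. The others were Sema3a, Sema5b, Plxna2 and Plxnb3, and the last, 1 of the 2 plexins, turned its direction without the highest neuron of each type. With 1 sample per type these counts describe the neurons in hand.

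Sema3c, a secreted ligand that binds both neuropilins and is known for its part in the outflow tract of the heart, had the highest level per kb of all semaphorins in ACP neurons. Reads of it were held by 94.3% of ACP neurons (95% interval 84.3 to 98.8), 41.8% of ACV neurons (31.9 to 52.2) and 88.5% of Larynx neurons (76.6 to 95.6). Its level ran from 0 through a median of 1.63 to 7.65 in ACP, from 0 through 0 to 2.43 in ACV, and from 0 through 1.98 to 14.7 in Larynx. The ACV neurons were thus the low ones and the Larynx neurons spread most widely, and the 3 ranges overlapped. The mean was 1.88 in ACP against 0.182 in ACV, a 10.3-fold difference (log2 3.37, 2.82 to 3.5 over the alternatives). Larynx, at 2.93, was 16.1-fold above ACV and less than 2-fold above ACP. After thinning, 90.6%, 29.6% and 88% of the neurons held Sema3c, so the gap was at least as wide at equal depth.

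Sema3d, a secreted ligand close in sequence to the other class 3 members and known for patterning vessels and the neural crest, was in contrast common in ACP neurons and sparse in both other types. It was found in 73.6% of ACP (59.7 to 84.7), 13.3% of ACV (7.26 to 21.6) and 9.62% of Larynx neurons (3.2 to 21), or 67.9%, 6.12% and 8.0% after thinning. In ACP its level had a median of 0.704 and a highest value of 6.63, and in ACV and Larynx the median was 0 with highest values of 2.26 and 2.53. A few ACV and Larynx neurons therefore reached the ACP range. One ACV neuron alone held 69% of the summed ACV level, and 1 Larynx neuron 56.5% of that of Larynx. The mean of 1.03 in ACP was 30.7-fold that of ACV (0.0335, log2 4.94) and 11.9-fold that of Larynx (0.0862, log2 3.58), and without the highest neuron of each type the log2 ratios were 6.46 and 4.59. ACV and Larynx differed by a log2 ratio of -1.36, which became -0.30 among neurons with at most 900 counts of Apoe, and the order of their shares turned with thinning, so no order is drawn between them. Sema3c and Sema3d occurred together in 38 of 53 ACP neurons (71.7%), 6 of 98 ACV neurons (6.12%) and 5 of 52 Larynx neurons (9.62%). All 5 Larynx neurons with Sema3d also held Sema3c. Since 94.3% of ACP and 88.5% of Larynx neurons held Sema3c, most neurons with Sema3d there would hold both from the single shares.

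Sema3a, the founding repellent of the class, which acts through Nrp1 and A plexins, was highest in ACP and lowest in Larynx. Sema3a was found in 69.8% of ACP, 53.1% of ACV and 44.2% of Larynx neurons (64.2%, 43.9% and 38% after thinning). The medians were 0.371, 0.00983 and 0, and the highest values 3.90, 3.25 and 1.76. All 3 ranges began at 0 and overlapped. The means of 0.567, 0.271 and 0.0963 put ACP 5.89-fold and ACV 2.81-fold above Larynx, while the 2.09-fold difference between ACP and ACV stayed past 2-fold in 3 of 7 alternatives (log2 0.61 to 1.07).

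The remaining class 3 ligands were sparse. Sema3e, which binds Plxnd1 without a neuropilin, was found in 24.5% of ACP, 6.12% of ACV and 26.9% of Larynx neurons, with a median of 0 in all and highest values of 0.887, 0.0537 and 0.325. Its mean was 21.3-fold higher in ACP than in ACV, but rests on 231 and 15 reads. After thinning 15.1%, 1.02% and 16% of the neurons held it. The mean was higher in ACP than in Larynx (log2 1.12) while the share was not, and the log2 ratio was 0.13 after thinning, so no order between these types is read from it. Sema3f, a ligand of Nrp2, was highest in Larynx with a mean of 0.136, then ACP with 0.0594 and ACV with 0.0193. The shares were 32.7%, 30.2% and 16.3%, its medians were 0 and its highest values 1.93, 1.12 and 0.647. The log2 ratio of ACP to Larynx (-1.20) was -0.40 when totals included Rn45s. Sema3b, a related ligand best known as a candidate tumour suppressor, went the other way and was found in 2 of 53 ACP neurons (3.77%), 18.4% of ACV and 15.4% of Larynx neurons. Its highest values were 0.338, 2.40 and 1.11, and its means of 0.00771, 0.0537 and 0.0584 were 6.97-fold higher in ACV and 7.57-fold higher in Larynx than in ACP. Leaving out the highest neuron of each type moved these log2 ratios of ACP to ACV and to Larynx from -2.80 and -2.92 to -4.43 and -4.79.

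**Figure D2:**
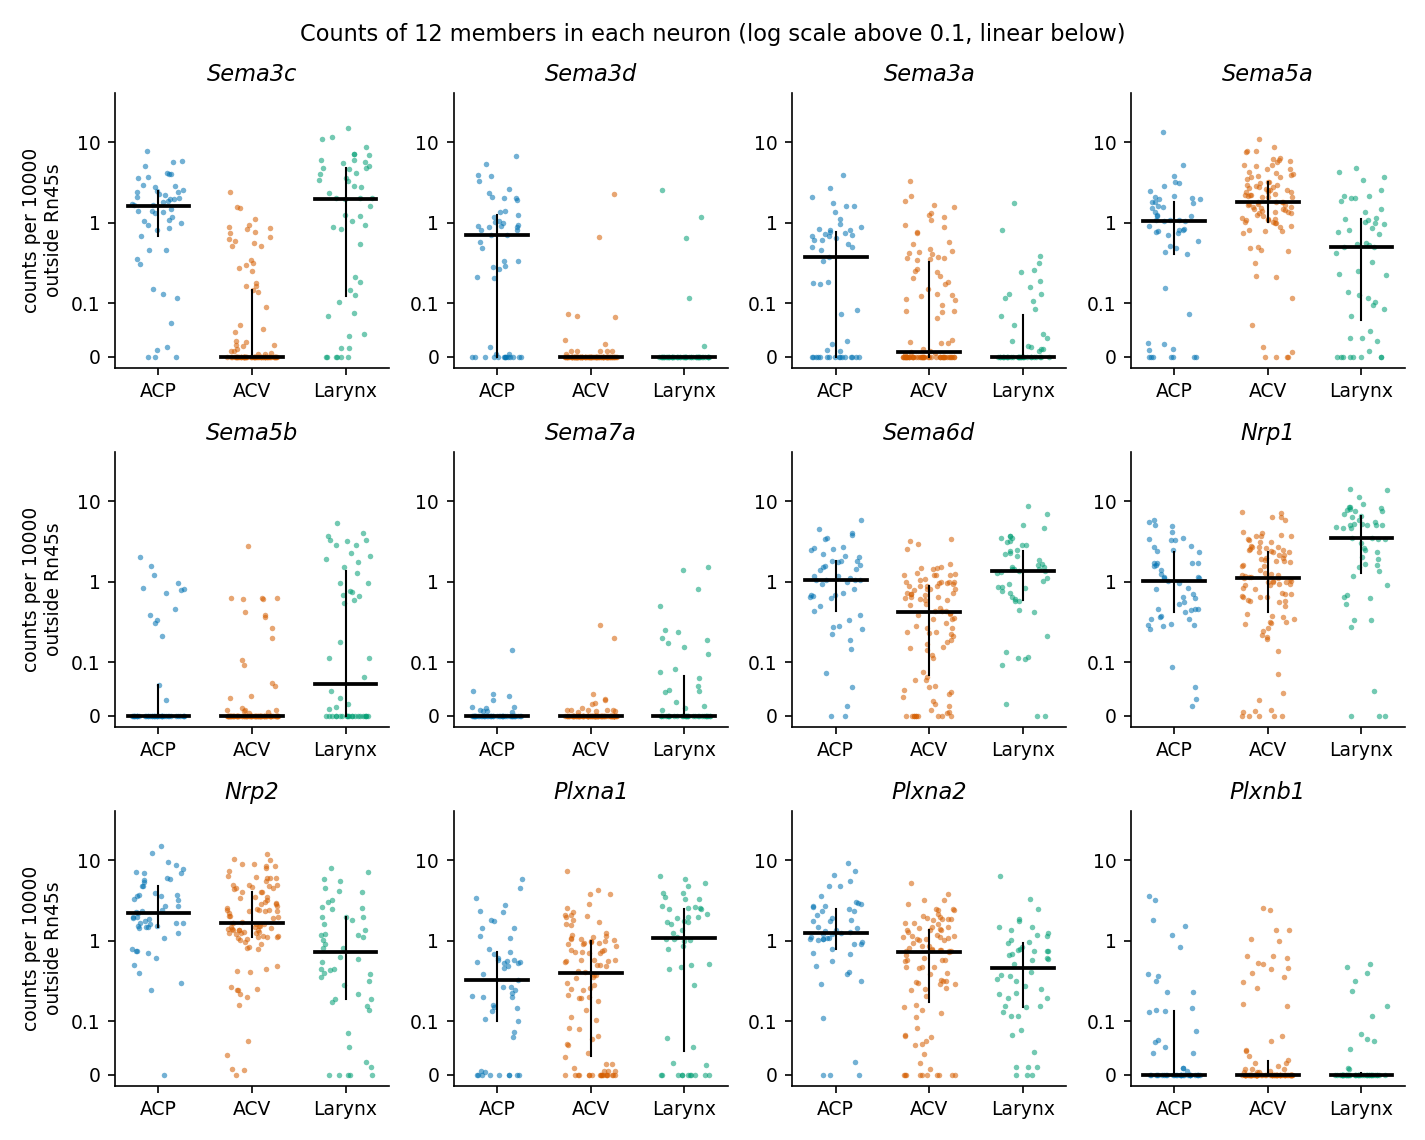
Counts per 10000 outside Rn45s of 12 members in every neuron (points), by type, on an axis that is logarithmic above 0.1 and linear below; thick bars are medians and thin bars run from the first to the third quartile. Sema3c is high in ACP and Larynx, Sema3d in ACP, and Sema5b, Sema7a and Nrp1 in Larynx, and in every panel the types overlap.

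Of the 5 class 3 genes at least 2-fold higher in ACP than in ACV, Sema3d, Sema3a, Sema3e and Sema3c lie in that order on chromosome 5, all on the plus strand, within 5.347 Mb (GRCm38, 12383385 to 17730268). This stretch was singled out after the values had been seen. It holds 19 genes of the count table, of which 6 were found in at least 10% of ACP or ACV neurons, the 4 semaphorins and 2 others. These others were Pclo, a presynaptic scaffold gene, with a log2 ratio of ACP to ACV of 0.32 and means of 2.36 and 1.89, and Cacna2d1, a calcium channel subunit gene, with -0.04 and means of 1.58 and 1.63. Both thus differed less than 2-fold. The remaining 13 genes were found in at most 5.66% of ACP or ACV neurons and were not compared; among them Gm21190 had a mean of 0.0431 in ACP, where 3.77% of the neurons held it, and of 0.000227 in ACV, where 1.02% did. Nor did the 4 semaphorins keep together against Larynx, where Sema3d and Sema3a were higher in ACP (log2 3.58 and 2.56) and Sema3c was not (-0.64). Sema3b and Sema3f are neighbours too, on chromosome 9 (107597674 to 107609229 and 107681500 to 107710475, minus strand), and differed between ACP and ACV in opposite directions.

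**Figure D3:**
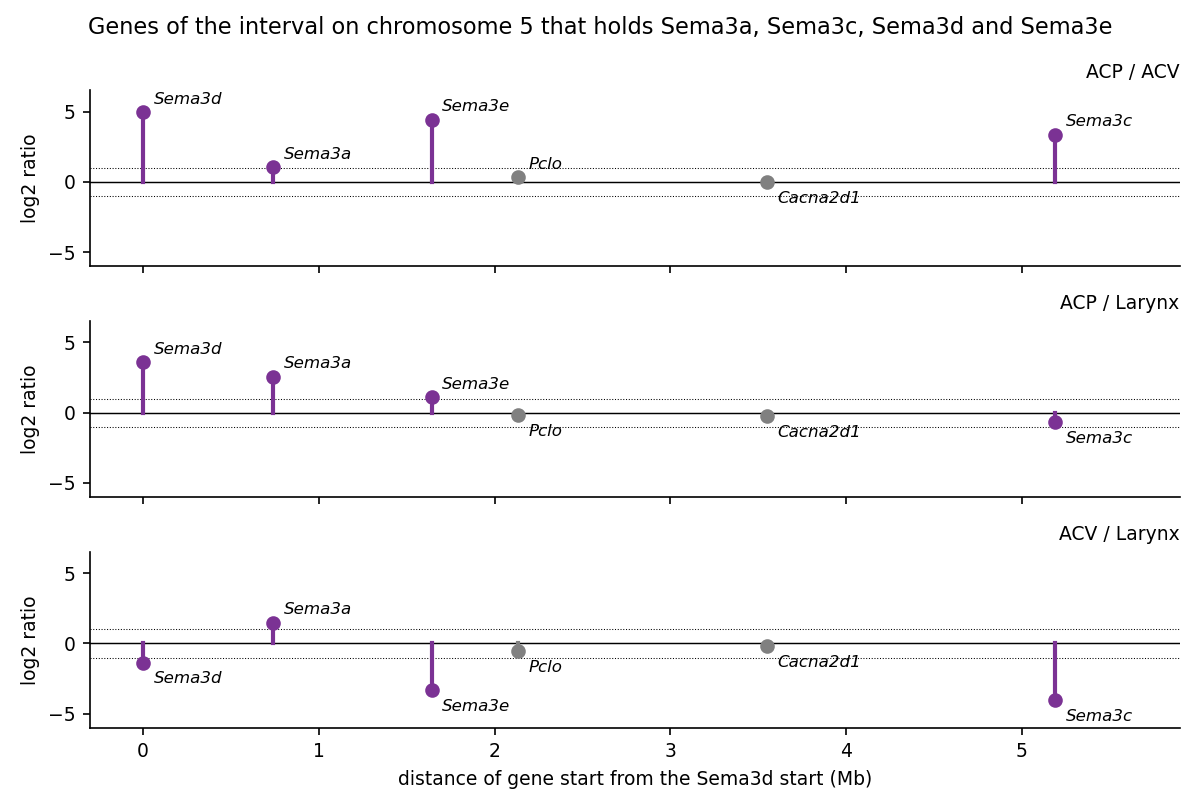
Log2 ratios of mean levels (vertical axis) for the 6 genes of the chromosome 5 stretch that were found in at least 10% of ACP or ACV neurons, by distance from the start of Sema3d in Mb (horizontal axis), in the 3 comparisons of types. Purple points are semaphorins and grey points are Pclo and Cacna2d1, which stay within 1 of 0, and dotted lines mark a 2-fold difference.

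Against Larynx the members differed in both directions. Of 29 members compared, 6 were at least 2-fold higher in ACP (20.7%, against 10.3% of all 13256 genes) and 6 in Larynx (20.7%, against 12.5%, or 22.8% of all genes in either direction). Of 30 members compared, 3 were at least 2-fold higher in ACV (10%, against 10.4% of all 13297 genes) and 13 in Larynx (43.3%, against 14%, or 24.4% in either direction). For ACV the share on the higher side was thus that of all genes, and the share on the lower side was above it. Past 2-fold in all 7 alternatives were 4 of the 6 members higher in ACP, 4 of the 6 higher in Larynx than in ACP, the 3 higher in ACV and 7 of the 13 higher in Larynx than in ACV. Sema3d and Plxnb3, for which no order of ACV and Larynx is drawn, are among the 13 but not the 7. These comparisons share the Larynx neurons. With Rn45s kept in the totals the median log2 ratio of all genes moved from -0.03 to 0.58 for ACP and from -0.02 to 0.52 for ACV, and the counts became 14 and 4 for ACP and 7 and 9 for ACV. With ACP and ACV pooled as cardiac neurons, 4 of 29 members were higher (13.8%, against 9.45% of 13202 genes) and 7 lower (24.1%, against 10.9%, or 20.4% in either direction).

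**Figure D4:**
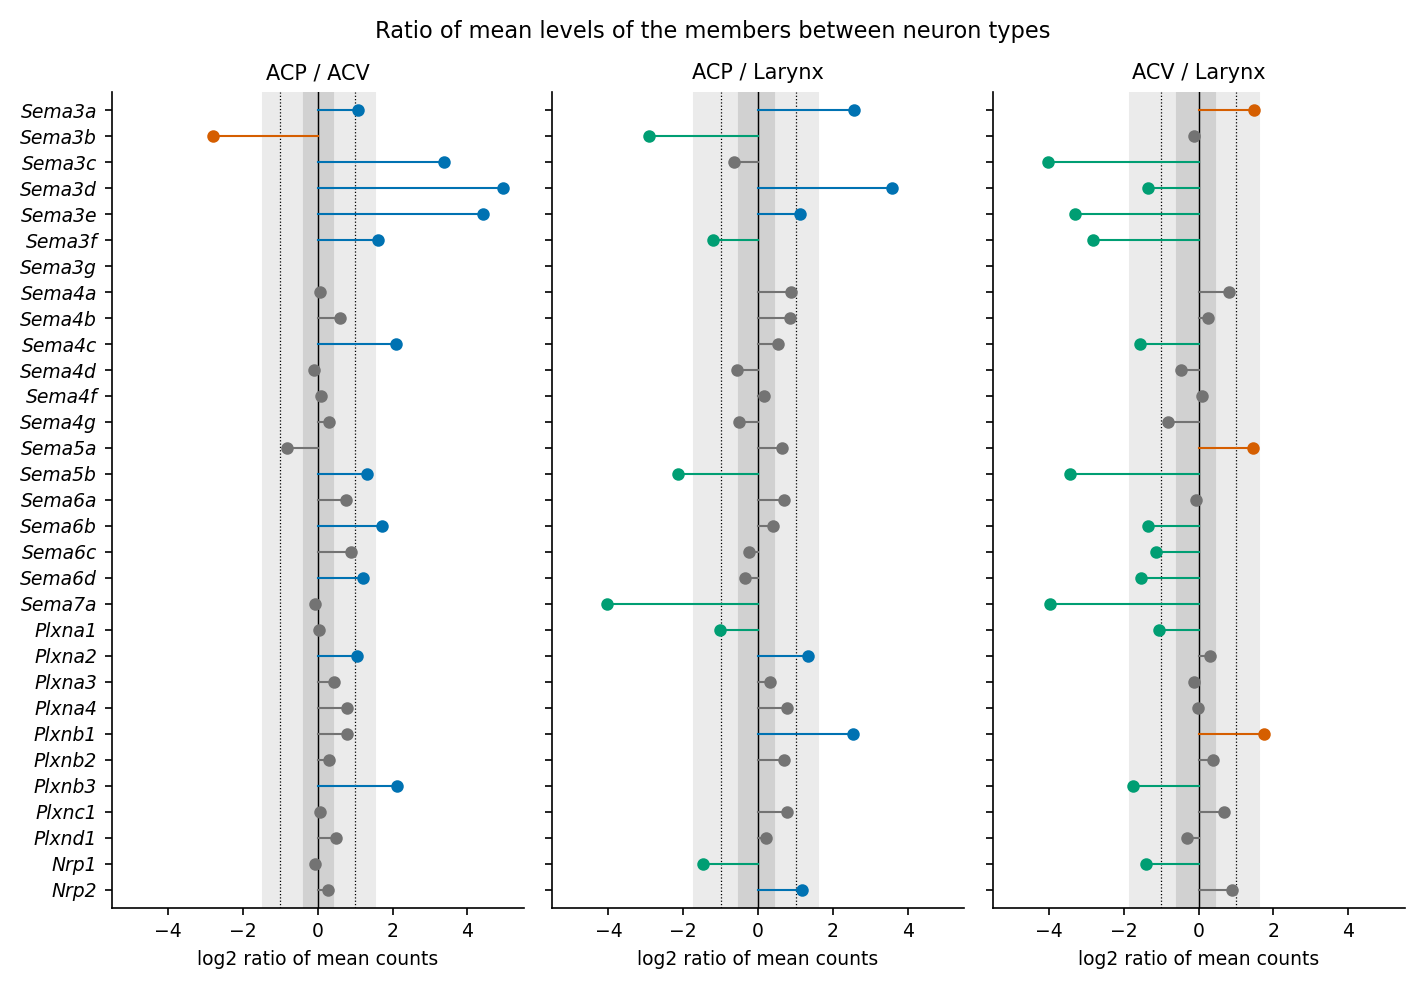
Log2 ratio of mean levels (horizontal axis) of each member (vertical axis) in the 3 comparisons of types. Blue, orange and green points are at least 2-fold higher in ACP, ACV and Larynx, grey points differ less than 2-fold, dark and light bands hold the middle 50% and 90% of all genes compared, and the ACV to Larynx panel has most of its coloured points on the Larynx side.

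Of the membrane-bound semaphorins, most class 4 members differed less than 2-fold in their means. Sema4f, the highest of them per kb, had means of 0.826, 0.782 and 0.740 in ACP, ACV and Larynx, and was found in 84.9%, 76.5% and 71.2% of the neurons. Its medians were 0.553, 0.573 and 0.50, and its highest values 4.54, 3.22 and 3.97. Of the 6 class 4 genes only Sema4c, whose protein binds Plxnb2, differed at least 2-fold. Sema4c was found in 34%, 14.3% and 21.2% of the neurons, with medians of 0, highest values of 0.319, 0.209 and 0.592, and means of 0.0293, 0.00689 and 0.0204. The 4.25-fold difference between ACP and ACV lasted in all 7 alternatives, though Sema4c shares 334 exon bases with a gene on the other strand. The difference of ACV to Larynx (log2 -1.57) was -0.94 without the highest neuron of each type, since 1 Larynx neuron held 55.8% of the Larynx level. Sema4a, Sema4b, Sema4d and Sema4g differed less than 2-fold in all 3 comparisons. Sema4b nevertheless was found in 84.9% of ACP, 71.4% of ACV and 38.5% of Larynx neurons (50.9%, 41.8% and 22% after thinning), with means of 0.176, 0.116 and 0.0968, and its summed counts over summed totals were 2.14-fold higher in ACP than in Larynx.

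The 2 class 5 semaphorins, which carry thrombospondin repeats and can both attract and repel axons, ran opposite ways. Sema5a was, of the 20 semaphorins, the only one with its highest mean in ACV. Its medians were 1.04 in ACP, 1.8 in ACV and 0.50 in Larynx, its highest values 13.4, 10.8 and 4.77, and it was found in 86.8%, 95.9% and 84.6% of the neurons. The mean of 2.43 in ACV was 2.73-fold that of Larynx (0.889), and ACP (1.39) lay between them, less than 2-fold from either. Sema5b was higher in Larynx, and was found in 59.6% of Larynx neurons (45.1 to 73), 28.3% of ACP (16.8 to 42.3) and 24.5% of ACV neurons (16.4 to 34.2). Thinned shares were 54%, 26.4% and 17.3%. Its median was 0.0599 in Larynx and 0 in the cardiac types, and its highest values were 5.38 in Larynx, 2.03 in ACP and 2.78 in ACV. The mean in Larynx (0.882) was 4.37-fold that of ACP (0.202) and 10.9-fold that of ACV (0.0811).

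In class 6, whose members signal through A plexins, the order was Larynx and ACP above ACV. Sema6d, a ligand of Plxna1 and the highest of the class per kb, had medians of 1.06, 0.419 and 1.37 in ACP, ACV and Larynx and highest values of 5.75, 3.36 and 8.56. It was found in 96.2%, 89.8% and 96.2% of the neurons. The mean in ACV (0.602) was below that of ACP (1.39, 2.31-fold) and that of Larynx (1.77, 2.93-fold). Sema6b was found in 60.4%, 51% and 67.3% of the neurons, with medians of 0.0306, 0.00679 and 0.0657 and highest values of 2.18, 0.858 and 0.701. Its means of 0.156, 0.0470 and 0.119 again put ACV lowest, 3.31-fold below ACP and 2.54-fold below Larynx. Sema6c was found in 49.1%, 35.7% and 48.1% of the neurons, with medians of 0 and highest values of 1.45, 1.86 and 1.78, and differed at least 2-fold only between ACV (mean 0.0730) and Larynx (0.161), a log2 ratio of -1.14 that was -0.96 after thinning. Sema6a, a ligand of Plxna2 and Plxna4, differed less than 2-fold throughout.

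Sema7a, the only class 7 member, is held at the membrane by a lipid anchor and binds Plxnc1 and integrins. Sema7a was found in 42.3% of Larynx neurons (28.7 to 56.8), 22.6% of ACP (12.3 to 36.2) and 16.3% of ACV neurons (9.63 to 25.2). After thinning these shares were 34%, 5.66% and 5.10%. The medians were 0 and the highest values 1.53, 0.142 and 0.286. Many cardiac neurons with a read thus held very few. The mean of 0.117 in Larynx was 16.3-fold that of ACP (0.00714) and 15.7-fold that of ACV (0.00743), the widest of the 6 differences of members higher in Larynx than in ACP.

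The neuropilins were found in nearly every neuron, but in a different balance. Nrp1, the co-receptor of Sema3a, was found in 100% of ACP, 94.9% of ACV and 94.2% of Larynx neurons. Its level ran from 0.0191 through a median of 1.02 to 5.85 in ACP, from 0 through 1.10 to 7.29 in ACV, and from 0 through 3.45 to 14.1 in Larynx. The cardiac types were alike and the Larynx neurons were higher, with overlap. The mean in Larynx (4.22) was 2.78-fold that of ACP (1.52) and 2.64-fold that of ACV (1.59), and the log2 ratio of ACV to Larynx of -1.40 was -0.99 when totals included Rn45s.

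Nrp2, the co-receptor of Sema3f, was found in 98.1%, 99% and 90.4% of ACP, ACV and Larynx neurons and ran the other way. Its medians were 2.18, 1.67 and 0.719 and its highest values 15, 11.7 and 7.90. Each type had at least 1 neuron without a read, and the ranges overlapped. The mean in ACP (3.33) was 2.23-fold that of Larynx (1.5), and ACV (2.77) lay less than 2-fold from both. Set side by side per kb within each neuron, Nrp1 was above Nrp2 in 15 of 53 ACP neurons (28.3%, 16.8 to 42.3), 33 of 98 ACV neurons (33.7%, 24.4 to 43.9) and 42 of 52 Larynx neurons (80.8%, 67.5 to 90.4). Over the 52 ACP, 92 ACV and 45 Larynx neurons that held both genes, the median log2 ratio of Nrp1 to Nrp2 was -0.97, -0.58 and 1.79. A ratio within a neuron does not use the neuron's total, so neither Rn45s nor depth scaling enters it. Neurons on either side of equality existed in every type.

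**Figure D5:**
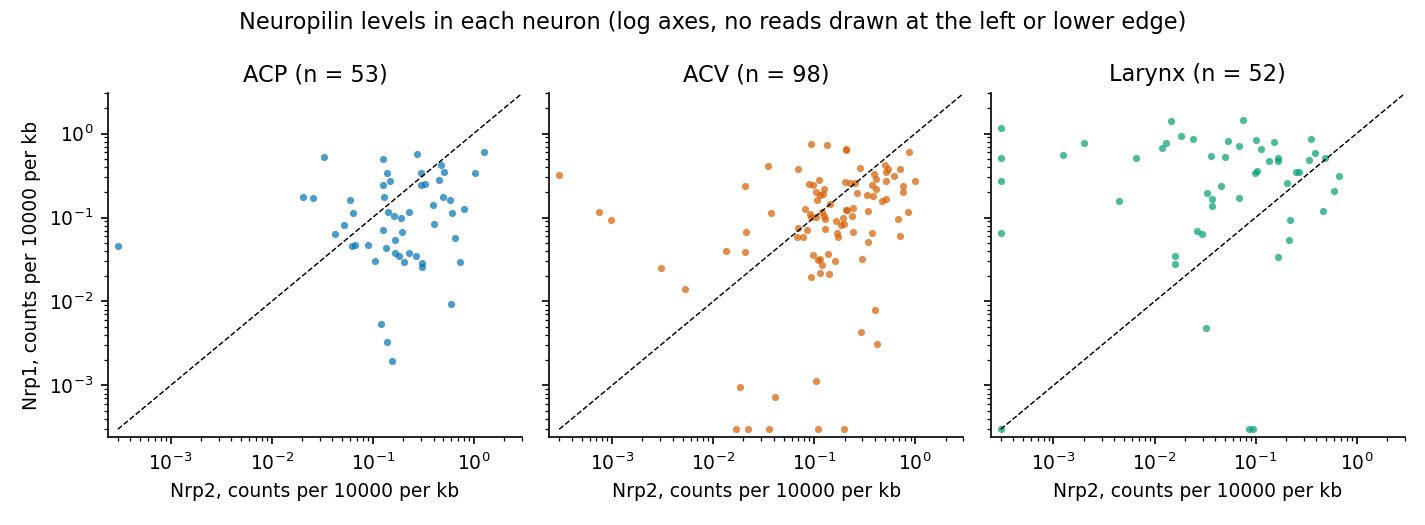
Level of Nrp1 (vertical axis) against Nrp2 (horizontal axis) in each neuron, both as counts per 10000 outside Rn45s and per kb of exon on log axes, in 3 panels by type; the dashed line marks equal levels. Of the Larynx points, 42 of 52 lie above the line, against 15 of 53 ACP and 33 of 98 ACV points.

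The A plexins, the signalling partners of the neuropilins, were found in 78.8% to 94.3% of the neurons of every type. Plxna3, the highest per kb, had means of 1.22, 0.888 and 0.972 in ACP, ACV and Larynx, medians of 0.51, 0.461 and 0.360 and highest values of 6.91, 7.24 and 4.18. Shares were 90.6%, 87.8% and 86.5%, and Plxna4 also differed less than 2-fold throughout. Plxna2, a receptor of Sema6a, was highest in ACP. Its medians were 1.24, 0.731 and 0.460 and its highest values 9.21, 5.21 and 6.36, with shares of 94.3%, 89.8% and 94.2%. The mean in ACP (1.89) was 2.05-fold that of ACV (0.921) and 2.52-fold that of Larynx (0.749), and the difference from ACV stayed past 2-fold in 6 of 7 alternatives. Plxna1 was highest in Larynx, with medians of 0.327, 0.393 and 1.08, highest values of 5.82, 7.21 and 6.31, and shares of 83%, 81.6% and 78.8%. The mean there (1.57) was 2.05-fold that of ACP (0.767) and 2.10-fold that of ACV (0.748). The log2 ratio of ACP to Larynx (-1.03) was -0.22 among neurons with at most 900 counts of Apoe and that of ACV to Larynx (-1.07) was -0.74. Plxna1 also shares 970 exon bases with an antisense gene, and reads of the 2 strands may not be told apart here.

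Among the B plexins, which bind class 4 ligands and can pair with the receptor kinase Met, Plxnb1 was higher in both cardiac types. It was found in 45.3% of ACP (31.6 to 59.6), 35.7% of ACV (26.3 to 46) and 25% of Larynx neurons (14 to 38.9), or 34%, 21.4% and 18% after thinning. Its medians were 0 and its highest values 3.57, 2.56 and 0.507. The neurons above 0.507 were thus all cardiac, while most neurons of each type held none. The means of 0.274 and 0.159 were 5.76-fold and 3.36-fold that of Larynx (0.0475), and remained at least 2-fold in all 7 alternatives. Of its exon bases, 257 overlap an antisense gene. Plxnb2, the highest B plexin per kb, was found in 69.8%, 55.1% and 57.7% of the neurons with means of 0.851, 0.695 and 0.533, medians of 0.280, 0.0559 and 0.113 and highest values of 5.18, 6.66 and 5.63, all less than 2-fold apart. Plxnb3, a receptor of Sema5a, was found in 4 of 53 ACP, 10 of 98 ACV and 3 of 52 Larynx neurons. One ACP neuron, at 3.03, held 98% of the ACP level, and the log2 ratio of ACP to ACV turned from 2.12 to -2.95 without the highest neuron of each type, so Plxnb3 gives no order.

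Of the other plexins, Plxnc1, the receptor of Sema7a, was found in 86.8%, 79.6% and 76.9% of ACP, ACV and Larynx neurons. Its means were 0.787, 0.749 and 0.464, its medians 0.465, 0.434 and 0.253, and its highest values 4.92, 4.35 and 2.78. Plxnd1, the receptor of Sema3e, was found in 24.5%, 19.4% and 21.2% of the neurons. Both differed less than 2-fold in all 3 comparisons.

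Receptor parts, and some ligands with a receptor, were often found in the same neuron. The 8 pairs of a neuropilin with an A plexin were found together in 73.1% to 94.3% of the neurons of a type. Sema3c was found with Nrp1 in 94.3% of ACP, 41.8% of ACV and 84.6% of Larynx neurons, and with Nrp2 in 94.3%, 40.8% and 80.8%, so the shares of the pairs were close to those of the ligand itself. Sema6a was found with Plxna2 in 90.6%, 81.6% and 80.8% of the neurons, and Sema6d with Plxna1 in 81.1%, 76.5% and 76.9%. Each of these genes was found in most neurons of every type, so high joint shares come with the single shares. Pairs with a sparse ligand or a sparse receptor gave smaller shares. Sema7a and Plxnc1 were found together in 20.8% of ACP, 14.3% of ACV and 34.6% of Larynx neurons (1.89%, 4.08% and 24% after thinning). Sema4d and Plxnb1, of which the receptor was the sparser gene, were found together in 32.1%, 27.6% and 19.2%. Sema3e and Plxnd1 were found together in 13.2%, 1.02% and 5.77%. Sema5a was found with the common Plxna1 in 73.6%, 78.6% and 69.2%, and with the sparse Plxnb3 in 7.55%, 9.18% and 5.77%. Shared reads in a neuron do not show that the proteins meet.

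Outside the family, 17 co-receptors and binding partners and 33 cytoplasmic effectors of the pathway were followed, of which 13 and 31 were compared. The strongest difference lay in Met, the receptor of hepatocyte growth factor and partner of B plexins, which was found in 56.6% of ACP (42.3 to 70.2), 59.2% of ACV (48.8 to 69) and 13.5% of Larynx neurons (5.59 to 25.8). Its medians were 0.0616, 0.0425 and 0 and its highest values 2.32, 2.62 and 0.617. The means of 0.353 and 0.279 stood log2 4.24 and 3.90 above Larynx (0.0187), where 1 neuron held 63.6% of the level and without which, and without the highest cardiac neurons, the log2 ratios were 5.5 and 5.20. After thinning 49.1%, 44.9% and 10% of the neurons held it. Met and Plxnb1 were thus both higher in the cardiac neurons. Itga1, an integrin chain, was also higher in both cardiac types (log2 2.61 in ACP and 1.89 in ACV), on 16 reads in Larynx. Cntn2, an adhesion protein of axons, was higher in Larynx, with log2 ratios of -1.40 for ACP and -1.07 for ACV that were -0.83 and -0.63 when totals included Rn45s. In all, 2 of 13 co-receptors were at least 2-fold higher in ACP than in Larynx (15.4%, against 10.3% of all genes). Another 2, Cntn2 and Cspg4 (-1.05), were higher in Larynx (15.4%, against 12.5%). In the comparison of ACV, 2 were higher in ACV (15.4%, against 10.4%) and 1 in Larynx (7.69%, against 14%). Between ACP and ACV only Ptk7 (1.16) reached 2-fold (7.69%, against 9.87% of all genes higher in ACP). It was at 0.88 without the highest neurons.

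The effectors passed 2-fold at shares near or below those of all genes. Between ACP and ACV, 3 of 31 were at least 2-fold higher on each side. That is 9.68% each way, against 9.87% of all genes higher in ACP and 8.63% higher in ACV. Their median log2 ratio was 0.03. Mical2 (1.42), the adaptor Nck2 (1.19) and Sh3bp1 (2.16) were higher in ACP, although 1 neuron held 75.5% of the Sh3bp1 level and its log2 ratio was 0.45 without the highest neurons. Farp2 (-1.60), an exchange factor that binds A plexins, Mical1 (-1.5), an actin-oxidising enzyme, and the GTPase Rras (-1.16) were higher in ACV. Against Larynx, 1 effector, Sh3bp1 again, was higher in ACP (3.23%, against 10.3% of all genes) and 4 in Larynx (12.9%, against 12.5%). In the comparison of ACV, none was higher in ACV (against 10.4% of all genes) and 4 in Larynx (12.9%, against 14%). Of these, Mical1 (-1.92) and Farp2 (-2.31) were lower in ACP, and Mical2 (-1.8) and Nck2 (-1.32) in ACV, where 1 Larynx neuron held 69.1% of the Farp2 level and the ratio of ACP was -1.23 without the highest neurons. Cdk5r1, the activator of the kinase Cdk5, was lower in both cardiac types (-1.02 and -1.14), as was Arhgef12, an exchange factor that binds B plexins (-1.04 and -1.01), but these 4 ratios lay between -0.17 and -0.66 when totals included Rn45s.

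Markers of other cells were present beside these results, and their part in them was not tested. Of all genes compared between ACP and ACV, 9.87% were at least 2-fold higher in ACP and 8.63% in ACV. In Larynx, 12.5% were at least 2-fold higher than in ACP and 14% than in ACV. Of 7 astrocyte markers, none was at least 2-fold higher in ACP and 1 in ACV, and together they took 0.0201% to 0.973% of the counts outside Rn45s in ACP neurons, 0.0129% to 3.14% in ACV and 0.0933% to 1.62% in Larynx. Of 7 microglial markers, 5 were at least 2-fold higher in ACV than in ACP and 5 higher in Larynx than in ACP, with medians of the summed level of 0.0656, 0.352 and 0.295 in ACP, ACV and Larynx and shares of the counts of 0% to 0.0926%, 0% to 0.50% and 0% to 0.182%. Mural and fibroblast markers had medians of 0.0144, 0.0210 and 0.206 and reached 83.4 in Larynx, where 3 of 5 compared were higher than in ACP. Endothelial markers had a median of 0 in every type, and oligodendrocyte markers had medians of 1.73, 1.75 and 2.04. Between ACP and ACV, 2 of 3 endothelial markers compared were at least 2-fold higher in ACP and 1 in ACV (median log2 ratio 1.39), and 2 of 4 mural and fibroblast markers were higher in ACP and 1 in ACV (1.06). All 8 oligodendrocyte markers had a higher mean in ACP, 1 of them at least 2-fold (median 0.62), the side on which most semaphorins were higher. In Larynx 3 of 4 endothelial and 3 of 4 mural and fibroblast markers were at least 2-fold higher than in ACV. More than 1800 counts of Apoe, an astrocyte gene, were held by 11 ACP, 28 ACV and 0 Larynx neurons. Among neurons with at most 900 counts of Apoe (26 ACP, 44 ACV and 38 Larynx neurons), Sema3c and Sema3d remained at least 2-fold higher in ACP than in ACV, and Sema5b, Sema7a and Nrp1 in Larynx than in either cardiac type. Sema3a (log2 0.61) and Sema5b (0.77) fell below 2-fold between ACP and ACV. Of the counted member differences, 9 of 12 were kept between ACP and ACV, 10 of 12 between ACP and Larynx and 13 of 16 between ACV and Larynx. Of all genes, 27.3% then passed 2-fold between ACP and ACV, against 18.5% with all neurons.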

How the data were processed

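Single neurons were profiled by Smart-seq2. The authors aligned the paired reads to mm10 with STAR 2.6.1d (per the labels) and describe removing neurons with few aligned reads or many counts of Apoe; how reads were counted per gene and whether strand was used are not given in the sources used here. The deposited table holds whole-number counts per gene, of which all columns were used; a second deposited table, in CPM, was left out because its columns do not share 1 total. Neuron types came from the deposited annotation. No 2 neurons held identical counts (0 pairs). The lowest total count was 542162. The highest count of Apoe was 45046, and 39 neurons held more than the 1800 counts the study gives as its limit; how that limit relates to this table is not given in the sources used here.

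Counts were divided by the neuron's total outside Rn45s and multiplied by 10000, averaged over neurons, and compared as ratios of means where at least 10% of the neurons of a type held a read. Since each type is 1 sample, no test was made. Full values are given for members at least 2-fold apart in any pair of types and for the highest member of each role per kb, and for at most 6 genes of each pathway comparison. Exon lengths came from GENCODE vM21 and promoters from RefSeq (GRCm38.p6). Python 3.11.15, numpy 2.4.6, pandas 2.3.3 and scipy 1.17.1 were used, with edgeR 4.0.16 and DESeq2 1.42.0 for alternative library sizes only. The steps were tested on simulated data. Alternatives were other library sizes, summed counts, neurons left out, thinning to 150000 counts and other detection and fold limits. The members and lists were chosen with earlier results of these data known. Intervals and limits for a count of 0 (3 neurons of the total) treat neurons as independent draws. They do not cover differences between mice, which no label names. Smart-seq2 reads also carry no molecular identifiers.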

Additional observations from a re-analysis of the deposited data

How the results depend on the processing

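The 51 member ratios of at least 2-fold in 4 comparisons (cardiac neurons as 1 group make the fourth) were recomputed in 7 ways, which gave 357 values, of which 1 reversed: Plxnb3, ACP to ACV, was -2.95 without the highest neuron. The 30 pathway ratios gave 210 values, of which 5 reversed: without the highest neuron Sh3bp1 (ACP to Larynx) was -0.14 and Farp2 (cardiac to Larynx) 0.11, at most 900 counts of Apoe they were -0.68 and 0.28, and with Rn45s in the totals Mical2 (cardiac to Larynx) was 0.04. With Rn45s in the totals the members higher in ACP, ACV and all cardiac neurons than in Larynx numbered 14, 7 and 10 in place of 6, 3 and 4; the median log2 ratio of all genes was 0.58, 0.52 and 0.56 in place of -0.03, -0.02 and -0.01, and 83%, 77.5% and 84.1% of the genes past 2-fold were then higher in the cardiac neurons, against 45.3%, 42.7% and 46.4%. Without the highest neuron that last share was 63.3%. Members higher in ACV than in ACP numbered 3 without the highest neuron, 3 at up to 900 counts of Apoe, 0 at a detection minimum of 25% (at which 1 in the main count, Sema3b, was not compared) and 2 at a fold limit of 1.5. At 1.5-fold, 13, 6 and 8 members were higher in ACP, ACV and all cardiac neurons than in Larynx. At 3-fold, 7 were higher in ACP than in ACV, 3 in ACP and 3 in Larynx, 1 in ACV and 6 in Larynx, and 4 in Larynx than in all cardiac neurons. The share of all genes past 2-fold between ACP and ACV was 18.5%, 33.1% with no detection minimum and 12% at 25%; between ACP and Larynx it was 22.8%, 36.4% and 16.5%, and between ACV and Larynx 24.4%, 38.2% and 18.6%. At 1.5-fold the 3 shares were 34.5%, 41.7% and 44.8%, and at 3-fold 9.14%, 10.9% and 11.8%. The cause of these shifts was not tested. No paired analysis was possible because the labels give neurons no shared replicate and the types were not tested.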

Other observations

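The 13 ACV neurons with a read of Sema3d were set beside the 85 without, a split made after the values were seen and given as values only. Trhr, a receptor gene that marks ACP neurons, was found in 30.8% of the former and 10.6% of the latter, and Calb1, another ACP marker, in 53.8% and 43.5%. The ACV markers Bche and Ghsr were found in 84.6% and 61.5% of the neurons with Sema3d, and in 90.6% and 67.1% of those without, so most ACV neurons with Sema3d held ACV markers. In ACP, 35 of 39 neurons with Sema3d (89.7%) held Trhr, against 5 of 14 without (35.7%), and no neuron of either kind held Ghsr. Median counts outside Rn45s were 953492 and 1174320 in the ACV neurons with and without Sema3d and 1127748 and 984185 in the ACP neurons.

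Hgf, the gene of the ligand of Met, lies in the chromosome 5 stretch of the semaphorins. No ACP neuron, 1.02% of ACV neurons and 5.77% of Larynx neurons held a read of it.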
